A study of Mus musculus with 399 samples.

Results

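Liver transcripts of female TALLYHO/Jng (TH) mice fed a high-fat diet for 16 weeks were compared with those of female TH mice fed chow, 6 mice on each diet. The 12 libraries were taken by their labels (liver, female, TH, 20 weeks of age) from the 399 libraries of the series, of which 96 are of liver. TH is an inbred, polygenic strain that becomes obese and is prone to diabetes. Mice of both groups were weaned at 4 weeks of age onto the diet they then kept, and were killed at 20 weeks. The labels name no transgene or drug, and the diet is the one difference between the groups that the labels give. The sources used here do not give the composition of the diets, body weights, feeding state or time of day of collection. Each library is labelled with its own animal, so the p-values measure the spread between mice of 1 inbred strain. The 3 other pairs of liver groups (6 mice on high-fat and 6 on chow in each) used to test whether the response differed were TH males at 20 weeks, females of C57BL/6J (B6), the comparison strain, at 20 weeks, and TH females at 5 weeks after 1 week of feeding.

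The 12 libraries held 10482033 to 15870716 counted reads, and 15426 genes passed the filter on low counts. Alb, the hepatocyte product serum albumin, stood at 13664 to 18960 CPM (reads of a gene scaled to a common library size) in every library. Xist, transcribed from the inactive X chromosome, stood at 1168 to 1731 CPM, and the Y-linked Ddx3y and Kdm5d were at or below 0.339 CPM, which matches the labelled sex. The first principal component, with 36% of the variance, ran from -28.3 to -18 in the chow libraries and from 19.5 to 28.7 in the high-fat libraries. Transcripts typical of another tissue were high in 2 libraries, called the mixed libraries. How they came to be there was not tested. The summed level of 12 skeletal muscle genes was 31.3 CPM in chow mouse 6 and 0.339 to 1.67 CPM in the other 11 mice, and that of 14 pancreatic acinar genes was 539 CPM in high-fat mouse 5 and 11.1 to 39.6 CPM in the others. Where leaving out both of these libraries ended a call or moved the count of a list by over 1.5 times, that value is given too. In whole liver, fewer cells of a type and less RNA per cell cannot be told apart.

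The liver makes fat and cholesterol from acetyl-CoA under the control of the SREBP and ChREBP transcription factors, burns fatty acids in mitochondria and peroxisomes through enzymes that PPAR-alpha induces, and makes or stores glucose according to insulin. The nuclear receptors CAR and PXR switch on enzymes that oxidise, conjugate and export drugs, steroids and bile acids. Many of these genes follow the daily clock of the liver, in which the activators ARNTL and CLOCK (or NPAS2) drive the genes of their own repressors, PER and CRY, and of DBP and TEF.

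Of the 15426 genes tested, 2358 (15.3%) were called different between the diets at a Benjamini-Hochberg adjusted p under 0.05 in edgeR's quasi-likelihood test, 1022 higher on high-fat (6.63%) and 1336 lower (8.66%). At least a 2-fold change was seen for 350 of the called genes (2.27%), namely 158 of the higher genes (1.02% of those tested) and 192 of the lower genes (1.24%). In 1102 genes (7.14%) the CPM values of the 6 high-fat mice did not overlap those of the 6 chow mice, and in 392 of them (2.54%) the high-fat mice were the higher. Fold changes are log2 of high-fat over chow with their standard error. Levels are CPM, given as the median with the lowest and highest of the 6 mice in brackets, and are not divided by gene length. The fit was repeated under 20 alternatives. Among them were other scaling, DESeq2, the 16 liver groups together (the 16-group fit), the replicate number as a block (the block) and leaving out each mouse. Another was a covariate for how steeply each library's log2 CPM changed with the GC content of genes (the GC slope). Where a call of a named gene changed, the values of the alternative are given.

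Genes chosen by size were taken only from those whose groups did not overlap, so the lack of overlap is no further support. The gene with the largest rise among those chosen by size was Pnpla3 (ENSMUSG00000041653), which encodes a lipid droplet hydrolase and is induced with fat synthesis. It rose from a median of 0.980 CPM (0.622 to 4.27) on chow to 24.8 CPM (6.69 to 188) on high-fat, a log2 fold change of 5.43 ± 0.85 with an adjusted p of 0.000584. The high-fat mice spread widely: mice 1 and 3 stood at 119 and 188 CPM and the other 4 at 6.69 to 29.3 CPM. Adcy1 (ENSMUSG00000020431), an adenylyl cyclase best known in brain, rose from a median of 0.506 CPM (0.254 to 0.615) on chow to 14.4 CPM (3.45 to 22.6) on high-fat, a log2 fold change of 4.77 ± 0.54 with an adjusted p of 4.6e-05, and no high-fat mouse overlapped the chow range. Fgf21 (ENSMUSG00000030827), a hormone secreted by the stressed or fasted liver, rose from a median of 0.444 CPM (0.0847 to 0.783) on chow to 6.55 CPM (4.09 to 7.43) on high-fat, a log2 fold change of 3.77 ± 0.26 with an adjusted p of 8.39e-07. The highest chow mouse, at 0.783 CPM, lay below the lowest high-fat mouse, at 4.09 CPM. Lepr (ENSMUSG00000057722), the leptin receptor, rose from a median of 5.09 CPM (4.30 to 5.17) on chow to 34.5 CPM (19.6 to 84.6) on high-fat, a log2 fold change of 3.02 ± 0.31 with an adjusted p of 2e-05, with high-fat mouse 6 the highest. Hsd3b5, a steroid reductase of the 3-beta-hydroxysteroid dehydrogenase family known for its high level in male mouse liver, rose from a median of 2.99 CPM (0.712 to 17.1) on chow to 87.7 CPM (55.2 to 114) on high-fat, a log2 fold change of 3.87 ± 0.49 with an adjusted p of 0.000115. The chow mice spread widely.

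The other genes of largest rise were Fam198a (3.93), the glutamate receptor subunit Gria3 (3.27), Serpina12 (3.15), which encodes the adipokine vaspin, the adhesion receptor Adgrv1 (3.04), the fatty acid binding protein Fabp5 (2.94), the transcription factor Mycn (2.89) and the clock gene Npas2 (2.75). Among the falls, Cyp2b10 (ENSMUSG00000030483), the classic target of CAR, fell from a median of 107 CPM (80.6 to 156) on chow to 6.23 CPM (3.38 to 10.2) on high-fat, a log2 fold change of -4.15 ± 0.24 with an adjusted p of 1.39e-07. No high-fat mouse came near the lowest chow mouse, at 80.6 CPM. Gsta1 and Gsta2, near-identical glutathione S-transferases whose reads the counting may have shared between them, had log2 fold changes of -4.93 ± 0.58 (adjusted p = 5.69e-05) and -5.05 ± 0.45 (adjusted p = 6.44e-06). Mt2 (-4.80 ± 1.06, adjusted p = 0.00681) and Mt1 (-3.85 ± 0.69, adjusted p = 0.00161) encode the metal-binding metallothioneins. The other large falls were in the sulfotransferase Sult2a7 (-5.05), the protease inhibitor Serpinb1a (-3.88), the clock output gene Dbp (-3.61), the retinoic acid hydroxylase Cyp26a1 (-3.28), the non-coding RNA Snhg11 (-3.20), the fatty acid hydroxylase Cyp4a10 (-3.12) and the carboxylesterase Ces2c (-2.82). All 24 genes kept their direction and their call in each of the 20 alternative analyses. Groups that do not overlap were part of the rule by which the 24 were chosen.

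**Figure D1:**
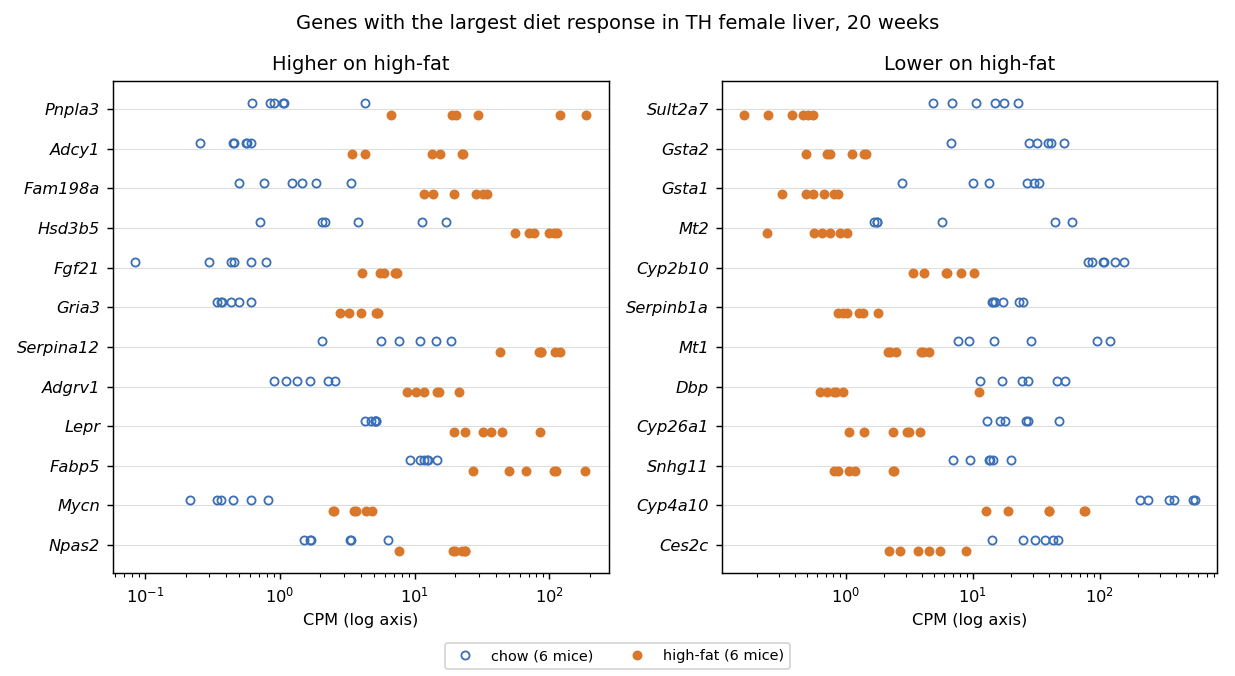
CPM on a log axis in each of the 12 mice for the 24 genes of largest change, those higher on high-fat at left and those lower at right, with 1 point a mouse (open for chow, filled for high-fat). By the rule that chose these genes, the 6 high-fat mice lie wholly above or wholly below the 6 chow mice in each. High-fat mouse 1, at 11.2 CPM, stands apart from the other high-fat mice for Dbp, beside the lowest chow mouse.

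Grouped by pathway, the called genes of fatty acid synthesis were mostly higher, and those of cholesterol synthesis, fatty acid oxidation, drug metabolism and amino acid catabolism mostly lower. Of 27 fatty acid synthesis genes tested, 13 rose and 1 fell, with a median log2 fold change of 0.46, against a median of 0.02 over all genes tested. With the replicate number as a block and the GC slope, 8 rose. Of 26 cholesterol synthesis and uptake genes 16 fell and none rose (median -0.48), and of 36 fatty acid oxidation genes and PPAR-alpha targets 22 fell and 3 rose (median -0.27). Of 31 genes of drug metabolism by CAR and PXR 15 fell and none rose (median -0.48), and of 32 genes of amino acid catabolism and the urea cycle 23 fell and none rose (median -0.37). These shares stand beside 6.63% of all genes called higher and 8.66% called lower. The lists and their members were chosen with earlier results of these data known, so the contrast is a description and not a test.

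**Figure D2:**
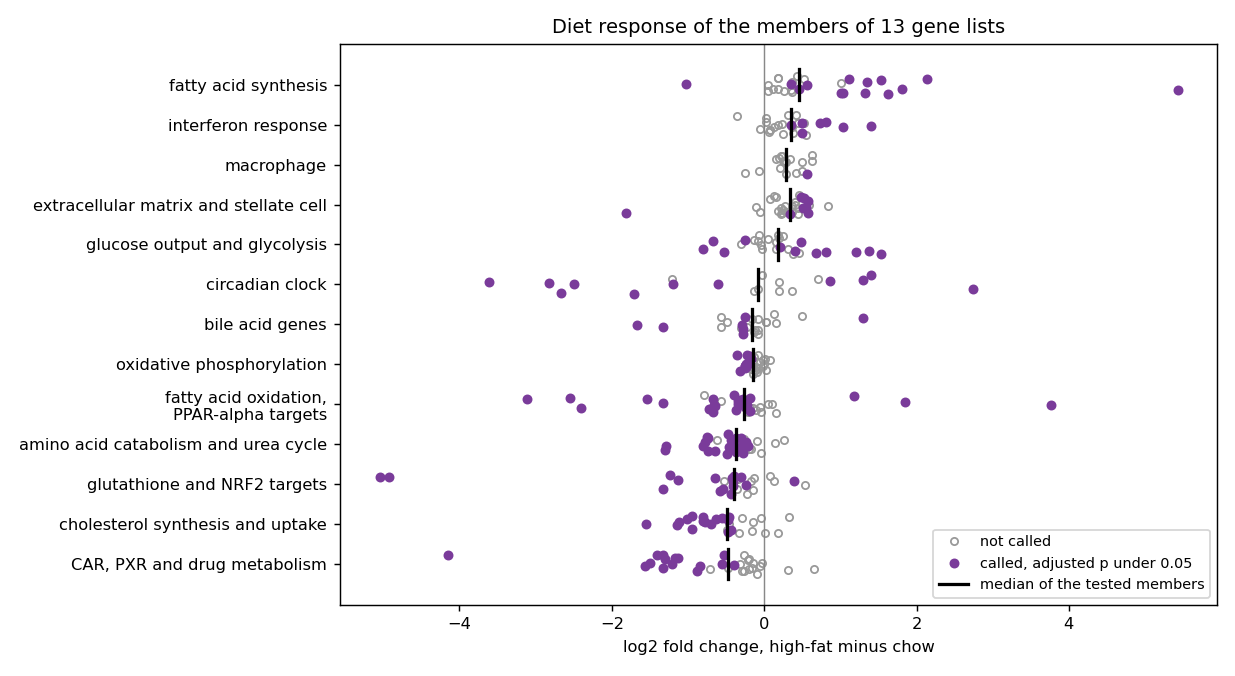
Log2 fold change, high-fat over chow, of each tested gene in 13 of the gene lists, 1 point a gene, filled where the gene was called, with a bar at the list median. Cholesterol, drug metabolism and amino acid genes lie mostly below 0 (medians -0.48, -0.48 and -0.37), and fatty acid synthesis genes mostly above it (median 0.46). The lists were chosen with earlier results of these data known.

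The 13 genes of fatty acid synthesis that rose included enzymes of NADPH supply, chain building, elongation and desaturation. G6pdx, glucose-6-phosphate dehydrogenase, which supplies the NADPH used in fat synthesis, rose from a median of 5.02 CPM (4.27 to 6.78) on chow to 17.8 CPM (8.09 to 40.8) on high-fat, a log2 fold change of 2.14 ± 0.32 with an adjusted p of 0.000381, with every high-fat mouse above every chow mouse. Pklr, liver pyruvate kinase and a ChREBP target, rose from a median of 141 CPM (114 to 183) on chow to 341 CPM (257 to 645) on high-fat, a log2 fold change of 1.53 ± 0.21 with an adjusted p of 0.000237, also without overlap. Acaca and Acacb, the acetyl-CoA carboxylases that make malonyl-CoA for synthesis and at the mitochondrial surface, rose by 1.35 ± 0.31 (adjusted p = 0.00892) and 1.62 ± 0.42 (adjusted p = 0.0173). The Acacb call was lost with the block and with the block and GC slope. Acacb then had log2 fold changes of 1.40 to 1.59 and adjusted p of 0.0649 to 0.0955. Elovl6, which lengthens palmitate to stearate, stood at 90.5 to 163 CPM on chow and 162 to 973 CPM on high-fat, a log2 fold change of 1.81 ± 0.41 (adjusted p = 0.00738). High-fat mice 1 and 3 stood at 931 and 973 CPM and the other 4 at 162 to 335 CPM. The Elovl6 call was lost with the block and GC slope, with a log2 fold change of 1.58 and an adjusted p of 0.0512. Elovl5 and Fads2, which lengthen and desaturate polyunsaturated fatty acids, rose by 1.04 ± 0.10 (adjusted p = 1.01e-05) and 0.56 ± 0.10 (adjusted p = 0.00189), and the NADPH source Me1, malic enzyme, by 1.11 ± 0.25 (adjusted p = 0.00752).

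Fasn, fatty acid synthase, had a log2 fold change of 1.32 ± 0.37 (adjusted p = 0.0258) and overlapping groups, at 695 to 1780 CPM on chow and 1088 to 5027 CPM on high-fat. The Fasn call was lost without any 1 of chow mice 1, 5 and 6 and high-fat mice 1 and 3, with the block and with the block and GC slope. Fasn then had log2 fold changes of 0.99 to 1.26 and adjusted p of 0.0515 to 0.0897. Acly, ATP citrate lyase, had a log2 fold change of 1.0 ± 0.31 (adjusted p = 0.0398). The Acly call was lost without any 1 of chow mice 1, 2, 3, 4, 5 and 6 and high-fat mice 1 and 3, with DESeq2, with the block and with the block and GC slope. Acly then had log2 fold changes of 0.71 to 1.07 and adjusted p of 0.0512 to 0.115. Scd1, the main hepatic stearoyl-CoA desaturase, was not called, at 1.01 ± 0.48 (adjusted p = 0.18): chow mouse 1 stood at 239.7 CPM and the other chow mice at 3095 to 4378 CPM. High-fat mice 1 and 3 recur in these values. In all 13 genes that rose, mouse 3 was among the 2 highest high-fat mice and in 9 it was the highest, and mouse 1 was the highest in the other 4. Elovl3, which makes very long-chain fatty acids, was the 1 gene of the list that fell (-1.02 ± 0.28, adjusted p = 0.0234). The Elovl3 call was lost without any 1 of chow mice 3 and 5, in the 16-group fit, with the block, with the block and GC slope and without both mixed libraries. Elovl3 then had log2 fold changes of -1.03 to -0.92 and adjusted p of 0.0518 to 0.449.

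The 16 cholesterol genes that fell ran from the first steps of the pathway to the last. Hmgcs1, HMG-CoA synthase, fell from a median of 664 CPM (489.9 to 689) on chow to 292 CPM (239.3 to 434) on high-fat, a log2 fold change of -1.01 ± 0.14 with an adjusted p of 0.000167, with no overlap between the groups. Idi1 and Mvk, early enzymes of the isoprenoid chain, fell, at -1.15 ± 0.16 (adjusted p = 0.00024) and -0.95 ± 0.12 (adjusted p = 9.39e-05). Fdft1, squalene synthase, fell, at -0.81 ± 0.11 (adjusted p = 0.000184), and the later sterol enzymes Cyp51 and Msmo1 at -0.95 ± 0.13 (adjusted p = 0.000186) and -1.55 ± 0.10 (adjusted p = 6.88e-07), with no overlap in any of these. Srebf2, the transcription factor that drives the pathway, had a log2 fold change of -0.48 ± 0.10 (adjusted p = 0.00455). Insig1, which SREBP also induces, was not called (-0.49 ± 0.26, adjusted p = 0.235). High-fat mouse 1, high for fat synthesis genes, was the high-fat mouse nearest to chow in 13 of the 16 cholesterol genes that fell. The summed level of the 26 genes was 6255 to 7806 CPM on chow and 3563 to 6076 CPM on high-fat.

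**Figure D3:**
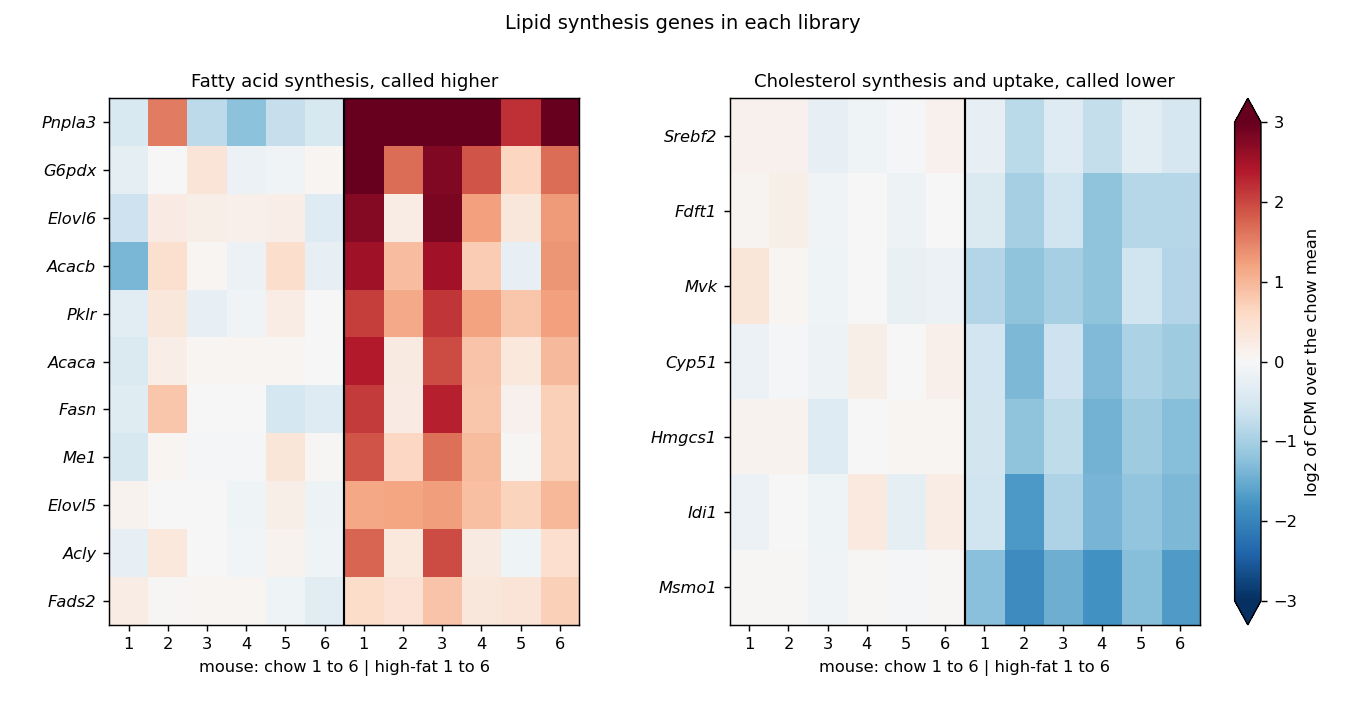
Log2 of CPM over the chow mean in each of the 12 mice, for the 11 fatty acid synthesis genes called higher (left) and the 7 cholesterol genes called lower (right) that are named in the text, from blue (lower) to red (higher), with colours cut off at -3 and 3. The highest mouse is high-fat mouse 1 in 4 of the raised genes and high-fat mouse 3 in the other 7. In 6 of the 7 lowered genes high-fat mouse 1 is the highest of the high-fat mice.

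SREBP-2 binds sterol elements in promoters of this pathway. The Hmgcs1 promoter is shown because Hmgcs1 was the 1 gene of the lowered cholesterol group with the searched motif in the window. Sequences are from RefSeq on build GRCm38.p6, a different build from the GRCm39 of the deposited data, and run from 250 bases before to 50 bases after the start of the gene, in the direction of transcription. Capitals mark TCACNCCAC, searched on both strands, which 1.24% of 32851 promoters of the same length hold. Of the 16 genes that fell, 11 had a promoter entry. All 11 held CCAAT, the letters of the NF-Y site, which 37.4% of all promoters hold. A match describes the letters and not a bound site.
Hmgcs1, chr13:119690101-119690400, plus strand: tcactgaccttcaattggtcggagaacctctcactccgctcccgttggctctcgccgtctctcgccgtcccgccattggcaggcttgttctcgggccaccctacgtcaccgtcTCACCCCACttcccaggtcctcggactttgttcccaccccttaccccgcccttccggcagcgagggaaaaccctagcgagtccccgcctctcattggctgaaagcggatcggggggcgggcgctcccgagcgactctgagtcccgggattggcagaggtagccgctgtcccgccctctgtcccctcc

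Of the 22 genes of fatty acid oxidation and PPAR-alpha targets that fell, the microsomal hydroxylases and acyl-CoA thioesterases fell furthest. Cyp4a14, an omega-hydroxylase of fatty acids, fell from a median of 48.4 CPM (39.3 to 139.5) on chow to 11.1 CPM (2.62 to 22.5) on high-fat, a log2 fold change of -2.55 ± 0.40 with an adjusted p of 0.000636, and Cyp4a10 fell from a median of 369 CPM (209.5 to 563) on chow to 40.1 CPM (12.8 to 76.7) on high-fat, a log2 fold change of -3.12 ± 0.40 with an adjusted p of 0.00012. The Cyp4a genes are close copies of each other, so reads may be shared among them. Acot1 and Acot2, acyl-CoA thioesterases, fell, at -2.41 ± 0.19 (adjusted p = 3.17e-06) and -1.32 ± 0.14 (adjusted p = 3.83e-05), without overlap. In mitochondria, Cpt2 (-0.64 ± 0.07, adjusted p = 2.75e-05) and Acadm (-0.66 ± 0.08, adjusted p = 0.00012), which import and oxidise acyl chains, fell in the same way, as did the peroxisomal enzyme Ehhadh (-0.67 ± 0.11, adjusted p = 0.00124). The genes of the list that rose were Fgf21, Vnn1 (1.85 ± 0.28, adjusted p = 0.000495), a pantetheinase, and Pdk4 (1.18 ± 0.22, adjusted p = 0.0018), a kinase that shuts pyruvate out of the mitochondrion. Cpt1a, which controls entry of fatty acids into mitochondria, and Ppara itself were not called, at -0.06 ± 0.11 (adjusted p = 0.773) and -0.21 ± 0.23 (adjusted p = 0.583).

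Of the storage and export genes, most were not called. Of 17 lipid droplet and fat storage genes tested, 1 rose and 3 fell. The fatty acid transporter Cd36 fell from a median of 66.0 CPM (39.2 to 94.8) on chow to 17 CPM (10.8 to 23.5) on high-fat, a log2 fold change of -1.95 ± 0.20 with an adjusted p of 2.32e-05, and every high-fat mouse lay below every chow mouse. The lipases Lipe and Pnpla2 had log2 fold changes of -0.90 ± 0.14 (adjusted p = 0.000416) and -0.31 ± 0.08 (adjusted p = 0.0119). The Pnpla2 call was lost without both mixed libraries, with a log2 fold change of -0.26 and an adjusted p of 0.0614. Plin2, a protein of the droplet surface, was not called (0.22 ± 0.09, adjusted p = 0.112), and Cidec, which fuses droplets, had too few reads to be tested. Plin2 was called without chow mouse 1, with a log2 fold change of 0.28 and an adjusted p of 0.0298. Of 20 lipoprotein genes, 2 rose and 1 fell. Apoa4, an apolipoprotein of triglyceride-rich particles, rose from a median of 114 CPM (83.8 to 289) on chow to 606 CPM (469 to 673) on high-fat, a log2 fold change of 2.16 ± 0.26 with an adjusted p of 6.17e-05, without overlap. Apob and Mttp, needed to assemble those particles, were not called, at -0.16 ± 0.12 (adjusted p = 0.414) and 0.09 ± 0.09 (adjusted p = 0.579).

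Called glucose genes went in both directions. Of 27 genes tested, 8 rose, 4 fell and 15 were not called. The count of 4 was 2 without any 1 of chow mice 4 and 5 and high-fat mice 2 and 4, and 2 without both mixed libraries. G6pc, glucose-6-phosphatase, which releases free glucose, rose from a median of 237.7 CPM (154 to 372) on chow to 649.7 CPM (373 to 913) on high-fat, a log2 fold change of 1.38 ± 0.22 with an adjusted p of 0.000765. The fructose enzyme Khk had a log2 fold change of 0.68 ± 0.13 (adjusted p = 0.00296), and the glycolytic regulator Pfkfb3 one of 1.21 ± 0.33 (adjusted p = 0.021). Pck1, the first committed enzyme of gluconeogenesis, and Slc2a2, the glucose transporter of hepatocytes, were not called, at -0.31 ± 0.25 (adjusted p = 0.447) and -0.07 ± 0.09 (adjusted p = 0.648). Pck1 was called with the block and with the block and GC slope. Pck1 then had log2 fold changes of -0.41 to -0.38 and adjusted p of 0.022 to 0.0311. Among 20 genes of insulin and nutrient signalling, 3 rose and 1 fell. Beside Lepr, these were Igfbp1, a binding protein of insulin-like growth factors that insulin represses, which rose from a median of 9.49 CPM (2.37 to 17.2) on chow to 31.6 CPM (17.7 to 91.6) on high-fat, a log2 fold change of 2.12 ± 0.45 with an adjusted p of 0.00558, and the cytokine signalling inhibitor Socs2 (1.70 ± 0.34, adjusted p = 0.0033). Trib3, a stress-induced pseudokinase, fell, at -1.65 ± 0.25 (adjusted p = 0.000405). Irs2, the insulin receptor substrate, was not called (0.87 ± 0.30, adjusted p = 0.0633). Irs2 was called with no filter on low counts, with the block, with the block and GC slope, without high-fat mouse 1 and without high-fat mouse 3. Irs2 then had log2 fold changes of 0.72 to 1.02 and adjusted p of 0.00238 to 0.0436.

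The 15 called genes of drug metabolism were all lower on high-fat, those of CAR and PXR among them, and 16 were not called. The receptor genes Nr1i3 (CAR) and Nr1i2 (PXR) had log2 fold changes of -0.52 ± 0.15 (adjusted p = 0.031) and -0.55 ± 0.08 (adjusted p = 0.000381). The Nr1i3 call was lost without any 1 of chow mice 2, 4 and 6 and high-fat mice 1, 2 and 3 and in the 16-group fit. Nr1i3 then had log2 fold changes of -0.53 to -0.43 and adjusted p of 0.0512 to 0.0988. Cyp3a11, the main PXR-induced oxidase, fell from a median of 5183 CPM (2902 to 6510) on chow to 1985 CPM (1652 to 2453) on high-fat, a log2 fold change of -1.33 ± 0.17 with an adjusted p of 0.000133, and Por, the reductase that passes electrons to all microsomal cytochromes P450, fell from a median of 346 CPM (284 to 424) on chow to 140.4 CPM (107 to 162) on high-fat, a log2 fold change of -1.33 ± 0.11 with an adjusted p of 4.64e-06. Cyp2c29, Cyp2c50, Cyp2c54 and Cyp2c37 fell, at -1.56, -1.31, -1.50 and -1.17, Aldh1a7 at -1.41 and the carboxylesterase Ces2a at -1.21, none with overlapping groups. The Cyp2c genes are close copies. High-fat mouse 5, which held pancreatic transcripts, was the highest of the high-fat mice in 12 of the 15 genes that fell; the part of those transcripts was not tested. Cyp1a2, Cyp2e1 and Ugt1a1, enzymes of the same kind, were not called, at -0.20 ± 0.16 (adjusted p = 0.419), -0.32 ± 0.13 (adjusted p = 0.116) and -0.27 ± 0.13 (adjusted p = 0.196). Cyp2e1 was called without both mixed libraries and without high-fat mouse 5. Cyp2e1 then had log2 fold changes of -0.44 to -0.43 and adjusted p of 0.0227 to 0.0326. Ugt1a1 was called without both mixed libraries, with a log2 fold change of -0.43 and an adjusted p of 0.0307.

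In the glutathione group, with the genes that NRF2 induces, 15 of 26 were lower and 1 was higher. Beyond Gsta1 and Gsta2, the epoxide hydrolase Ephx1 (-1.32 ± 0.10, adjusted p = 1.72e-06), the transferase Gstt3 (-1.24 ± 0.16, adjusted p = 0.000137) and the glutathione peroxidase Gpx1 (-0.42 ± 0.09, adjusted p = 0.00531) fell without overlap. Gclc, the rate-limiting enzyme of glutathione synthesis, was not called (0.07 ± 0.09, adjusted p = 0.631). Nfe2l2, which encodes NRF2, was the member that rose (0.40 ± 0.09, adjusted p = 0.00626). Of 23 bile acid genes 6 fell and 1 rose. The efflux pumps Abcc4 and Abcc3 fell, at -1.67 ± 0.30 (adjusted p = 0.00175) and -1.33 ± 0.12 (adjusted p = 5.89e-06), and the uptake transporter Slco1a1 rose from a median of 131 CPM (39.6 to 287) on chow to 339 CPM (289 to 444) on high-fat, a log2 fold change of 1.3 ± 0.34 with an adjusted p of 0.019. Cyp7a1, which starts the classic route to bile acids, was not called (-0.12 ± 0.28, adjusted p = 0.809), nor was the bile acid receptor gene Nr1h4 (0.16 ± 0.07, adjusted p = 0.145).

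The metallothioneins, small proteins that bind zinc and copper, fell far. Mt1 fell from a median of 21.7 CPM (7.64 to 121) on chow to 3.21 CPM (2.15 to 4.55) on high-fat, a log2 fold change of -3.85 ± 0.69 with an adjusted p of 0.00161, and Mt2 fell from a median of 3.75 CPM (1.67 to 61) on chow to 0.705 CPM (0.239 to 1.03) on high-fat, a log2 fold change of -4.80 ± 1.06 with an adjusted p of 0.00681. Chow mice 2 and 5 were the highest, at 121 and 94.9 CPM for Mt1 and 61 and 44.3 CPM for Mt2. Every high-fat mouse was below every chow mouse in both genes, which was part of the rule by which they were chosen. Slc39a5, a zinc importer, rose from a median of 0.488 CPM (0.272 to 1.12) on chow to 2.68 CPM (1.60 to 3.73) on high-fat, a log2 fold change of 2.11 ± 0.30 with an adjusted p of 0.000272, and Slc30a10, an exporter of manganese, rose by 0.73 ± 0.11 (adjusted p = 0.000507). Slc30a1, the zinc exporter that zinc induces, was not called (0.02 ± 0.11, adjusted p = 0.922). Of 17 iron genes, 4 fell and 2 rose, with 1 that rose without both mixed libraries. Ftl1 and Fth1, the ferritin subunits, fell, at -0.45 ± 0.08 (adjusted p = 0.00128) and -0.26 ± 0.07 (adjusted p = 0.0165), and Hamp, the iron hormone hepcidin, was not called (-0.35 ± 0.18, adjusted p = 0.195).

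The promoters of Mt1 and Mt2 are shown because both genes were among the largest falls. Capitals mark TGCACNC or TGCGCNC on either strand, the core of the metal response element that the zinc sensor MTF1 binds. The Mt1 window holds 3 matches and the Mt2 window 4, and 25.7% of the 32851 promoters hold at least 1.
Mt1, chr8:94178839-94179138, plus strand: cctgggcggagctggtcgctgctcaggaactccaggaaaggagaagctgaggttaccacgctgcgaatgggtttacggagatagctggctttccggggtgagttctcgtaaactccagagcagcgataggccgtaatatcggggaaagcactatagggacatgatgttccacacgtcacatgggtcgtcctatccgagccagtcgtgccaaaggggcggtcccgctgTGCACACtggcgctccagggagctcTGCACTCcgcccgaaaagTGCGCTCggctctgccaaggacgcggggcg
Mt2, chr8:94172368-94172667, plus strand: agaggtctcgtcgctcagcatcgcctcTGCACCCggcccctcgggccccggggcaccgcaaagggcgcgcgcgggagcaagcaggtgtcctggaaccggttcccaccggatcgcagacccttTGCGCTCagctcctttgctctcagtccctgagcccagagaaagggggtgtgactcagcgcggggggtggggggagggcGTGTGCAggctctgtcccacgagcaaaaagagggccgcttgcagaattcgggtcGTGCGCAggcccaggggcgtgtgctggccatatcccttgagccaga

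Of 19 clock genes tested, 7 fell and 4 rose. Arntl, the activator also known as Bmal1, rose from a median of 16.6 CPM (10.2 to 21.4) on chow to 42.7 CPM (27.6 to 45.9) on high-fat, a log2 fold change of 1.3 ± 0.16 with an adjusted p of 7.71e-05, with no overlap. Npas2, its partner, rose from a median of 2.52 CPM (1.5 to 6.34) on chow to 21.2 CPM (7.68 to 23.8) on high-fat, a log2 fold change of 2.75 ± 0.33 with an adjusted p of 6.92e-05, and the repressor Cry1 had a log2 fold change of 1.40 ± 0.21 (adjusted p = 0.00046). Nfil3, which opposes DBP at its sites, had one of 0.87 ± 0.19 (adjusted p = 0.00602). Dbp, the D-box activator that ARNTL drives, fell from a median of 26.0 CPM (11.5 to 53.2) on chow to 0.827 CPM (0.626 to 11.2) on high-fat, a log2 fold change of -3.61 ± 0.62 with an adjusted p of 0.0012. Tef, a relative of Dbp, fell from a median of 152 CPM (130 to 213.2) on chow to 44.9 CPM (32.4 to 92.7) on high-fat, a log2 fold change of -1.70 ± 0.23 with an adjusted p of 0.000149, and Per3 fell from a median of 40.7 CPM (31.7 to 70.6) on chow to 4.23 CPM (1.94 to 24.1) on high-fat, a log2 fold change of -2.67 ± 0.46 with an adjusted p of 0.00125. Usp2 and Ciart, further targets of the clock, fell, at -2.50 ± 0.34 (adjusted p = 0.000181) and -2.83 ± 0.51 (adjusted p = 0.00165), and Nr1d2, a repressor of Arntl, at -1.20 ± 0.30 (adjusted p = 0.0145).

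High-fat mouse 1 was the high-fat mouse nearest to chow in 5 of the 7 clock genes that fell and in all 4 that rose. The exceptions were Ciart, where mouse 2 was nearest (1.11 CPM), and Usp2, where mouse 4 was (2.26 CPM). In mouse 1 the Dbp level was 11.2 CPM against 0.626 to 0.955 CPM in the other 5, the Per3 level 24.1 against 1.94 to 5.56 CPM and the Nr1d2 level 93 against 19.2 to 50.6 CPM. Its Cry1 (11.8 CPM) and Nfil3 (31.2 CPM) levels lay within the chow ranges, which end at 13 and 41.3 CPM. Nr1d1, a close relative of Nr1d2, was not called with all mice (-1.21 ± 0.40, adjusted p = 0.055). Nr1d1 was called with no filter on low counts, in the 16-group fit, with the block, with the block and GC slope, without high-fat mouse 1 and without high-fat mouse 3. Nr1d1 then had log2 fold changes of -1.60 to -0.99 and adjusted p of 0.00879 to 0.0493. Per2 and Clock were not called, at -0.09 ± 0.30 (adjusted p = 0.881) and 0.19 ± 0.11 (adjusted p = 0.243). The hour at which each mouse was killed is not given in these sources. A different hour of killing between the diets, a shift in clock phase and a change in clock amplitude therefore cannot be told apart.

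**Figure D4:**
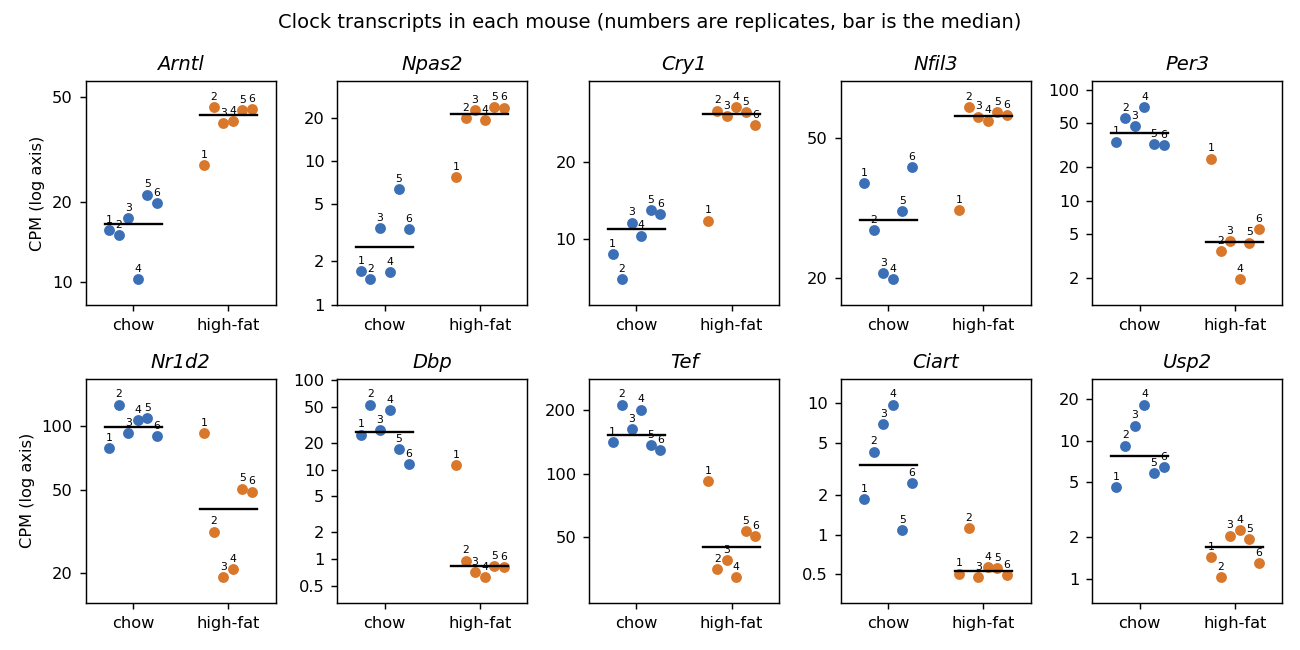
CPM on a log axis of 10 clock genes in each of the 12 mice, 1 point a mouse with its replicate number, and a bar at the group median. The high-fat mice lie above chow for Arntl and Npas2 and below chow for Dbp, Tef and Per3, and high-fat mouse 1 is the high-fat mouse nearest to chow in each of these.

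The promoters of Ciart, Per3 and Arntl are shown for the letters of the elements through which these genes are known to act on each other. Capitals mark CACGTG, the E-box that ARNTL binds, in Ciart, where the window holds 3 copies. They mark TTATGNAA, the D-box that DBP, TEF and NFIL3 bind, in Per3, with 2 copies, and the element of the ROR and NR1D receptors in Arntl, with 1. Both strands were searched. Of all 32851 promoters 7.15% hold the E-box letters, 3.38% the D-box letters and 0.606% the ROR letters, and of the 11 clock genes called, 3, 1 and 1 hold them.
Ciart, chr3:95882179-95882478, minus strand: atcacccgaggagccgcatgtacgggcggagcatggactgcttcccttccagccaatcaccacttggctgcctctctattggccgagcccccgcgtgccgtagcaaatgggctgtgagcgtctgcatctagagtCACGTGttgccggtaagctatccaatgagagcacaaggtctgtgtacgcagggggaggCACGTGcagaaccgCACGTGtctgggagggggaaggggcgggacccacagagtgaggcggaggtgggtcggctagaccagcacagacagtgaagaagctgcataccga
Per3, chr4:151044616-151044915, minus strand: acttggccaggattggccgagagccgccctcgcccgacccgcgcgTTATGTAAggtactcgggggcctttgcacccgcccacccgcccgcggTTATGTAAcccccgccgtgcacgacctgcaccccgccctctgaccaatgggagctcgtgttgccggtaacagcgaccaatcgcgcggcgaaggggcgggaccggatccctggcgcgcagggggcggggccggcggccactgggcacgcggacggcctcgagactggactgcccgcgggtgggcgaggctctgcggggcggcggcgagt
Arntl, chr7:113207261-113207560, plus strand: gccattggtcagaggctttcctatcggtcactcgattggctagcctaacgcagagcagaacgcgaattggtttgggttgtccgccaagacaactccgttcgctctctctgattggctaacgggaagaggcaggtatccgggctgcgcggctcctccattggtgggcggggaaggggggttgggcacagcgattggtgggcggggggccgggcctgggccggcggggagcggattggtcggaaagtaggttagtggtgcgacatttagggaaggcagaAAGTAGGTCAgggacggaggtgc

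The 23 called genes of amino acid catabolism and the urea cycle were all lower, and 9 were not called. Oat, ornithine aminotransferase, fell from a median of 733 CPM (539.7 to 923) on chow to 292 CPM (223 to 396) on high-fat, a log2 fold change of -1.29 ± 0.14 with an adjusted p of 2.75e-05, and Cth, which makes cysteine, fell from a median of 656 CPM (530.4 to 936) on chow to 289 CPM (229 to 316) on high-fat, a log2 fold change of -1.30 ± 0.13 with an adjusted p of 2.43e-05, both without overlap. The aminotransferases Gpt and Gpt2, the betaine enzyme Bhmt, the lysine enzyme Aass and Tdo2, which opens the tryptophan ring, fell, at -0.74, -0.81, -0.78, -0.76 and -0.73. Cps1, which commits ammonia to urea, fell, at -0.36 ± 0.09 (adjusted p = 0.0108). Of the 32 genes tested, 17 were lower without overlap, as were 4.6% of all genes tested. The summed level of the 32 genes was 26833 to 33351 CPM on chow and 20860 to 23373 CPM on high-fat. The list of periportal genes, expressed where blood enters the lobule, shares members with this one and had 9 of 13 lower and 1 higher, among them Cyp2f2 (-1.22 ± 0.16, adjusted p = 0.000163). Of 13 pericentral genes 4 fell and 3 rose, with a median log2 fold change of -0.20. Their summed level was 6628 to 7520 CPM on chow and 5294 to 7119 CPM on high-fat. Among those that rose were Glul, glutamine synthetase, and Axin2, a Wnt target, by 0.48 ± 0.08 (adjusted p = 0.00156) and 0.67 ± 0.09 (adjusted p = 0.000172). Of 31 genes of oxidative phosphorylation 13 fell, by 0.17 to 0.36 on the log2 scale, and none rose. With no filter on low counts 7 of them fell, and with the replicate number as a block and the GC slope 6 fell.

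Stress genes moved in both directions or were not called. Of 22 endoplasmic reticulum chaperones 1 rose, the transcription factor Xbp1 (0.27 ± 0.08, adjusted p = 0.0353). The Xbp1 call was lost without any 1 of chow mice 1, 2, 5 and 6 and high-fat mice 1, 5 and 6, with no filter on low counts, in the 16-group fit, with the block, with the block and GC slope and without both mixed libraries. Xbp1 then had log2 fold changes of 0.23 to 0.28 and adjusted p of 0.0548 to 0.187. Hspa5, which encodes the chaperone BiP, was not called (0.10 ± 0.13, adjusted p = 0.633). Of 18 genes of the integrated stress response, 5 rose and 4 fell, but 3 rose without any 1 of chow mice 1 and 2 and high-fat mice 2 and 4, and 2 rose in the 16-group fit. Of 13 heat shock genes 4 rose and 1 fell. Hspa1a and Hspa1b, near-identical genes of inducible HSP70, rose by 1.40 ± 0.28 (adjusted p = 0.00333) and 1.47 ± 0.27 (adjusted p = 0.00178), with high-fat mouse 4 the highest in all 4 genes that rose. Of 14 immediate early genes 3 rose, among them Jun (1.38 ± 0.27, adjusted p = 0.0031), and Fos and Egr1 were not called (0.69 ± 0.41 (adjusted p = 0.284) and -1.11 ± 0.63 (adjusted p = 0.259)). Of 22 secreted hepatokines, 4 rose. One was Inhba, a subunit of activin, which rose from a median of 18.8 CPM (16.3 to 22.5) on chow to 83.5 CPM (43.8 to 126) on high-fat, a log2 fold change of 2.15 ± 0.19 with an adjusted p of 6.44e-06.

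Lists of immune cells, inflammation and matrix differed in how many of their genes were called. Of 18 macrophage genes 1 rose, and of 13 Kupffer cell genes 1 rose. The general macrophage gene Adgre1 and the Kupffer cell gene Clec4f were not called (0.28 ± 0.28 (adjusted p = 0.539) and 0.29 ± 0.15 (adjusted p = 0.209)). Of 10 genes of lipid-associated macrophages 4 rose and 1 fell, with Fabp5 and the tetraspanin Cd9 (0.79 ± 0.08, adjusted p = 1.04e-05) highest in change; Trem2, a known marker of them, was not called (0.40 ± 0.24, adjusted p = 0.281). Of 31 matrix and stellate cell genes, 7 rose and 1 fell. The one that fell, the fibrillar collagen Col5a2, fell from a median of 308 CPM (258 to 396) on chow to 84.3 CPM (54.2 to 154) on high-fat, a log2 fold change of -1.82 ± 0.20 with an adjusted p of 3.83e-05, without overlap, and the collagen Col1a1 was not called (0.44 ± 0.27, adjusted p = 0.294). The count of matrix genes that rose was 15 without high-fat mouse 2. It was 3 or 4 without any 1 of chow mice 3 and 4 and high-fat mouse 4, 2 without both mixed libraries, 2 in the 16-group fit and 3 with the block and the GC slope. Of 25 interferon response genes 7 rose and none fell, with Ifi44 (1.41 ± 0.22, adjusted p = 0.0005) and Oas1a (1.04 ± 0.23, adjusted p = 0.00684) the largest, and of 34 acute phase and complement genes 8 rose and 2 fell, with Orm3 (-2.39 ± 0.21, adjusted p = 6e-06) and Lcn2 (1.3 ± 0.33, adjusted p = 0.0148) the largest in each direction. The Lcn2 call was lost in the 16-group fit, with a log2 fold change of 1.29 and an adjusted p of 0.114. The 8 acute phase genes became 4 without chow mouse 2 or high-fat mouse 6 and 5 without chow mouse 3 or 4, without high-fat mouse 5 or without both mixed libraries. In the 16-group fit 4 interferon genes, 2 genes of lipid-associated macrophages and 1 acute phase gene rose. No gene was called among 16 proliferation genes, 13 endothelial genes, 5 B cell genes and 2 T and NK cell genes tested, and the keratins Krt8 and Krt18 (-0.71 ± 0.08 (adjusted p = 4.58e-05) and -0.40 ± 0.07 (adjusted p = 0.00166)) were the called genes among 11 cholangiocyte genes.

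Genes that differ between the sexes did not move to one side. Of 18 male-biased genes tested 4 rose and 4 fell, with Hsd3b5 and Slco1a1 up and Mup1 (-1.44 ± 0.28, adjusted p = 0.00277), a urinary protein with many near-identical copies, down. Of 23 female-biased genes, 3 rose and 1 fell, with Lepr and Ntrk2 (1.52 ± 0.26, adjusted p = 0.00122) up and Sult2a1 (-1.90 ± 0.41, adjusted p = 0.0061) down. Without both mixed libraries, 2 male-biased and 2 female-biased genes fell. The female-biased Cyp2b9 and A1bg were not called (-0.29 ± 0.12 (adjusted p = 0.12) and -0.34 ± 0.25 (adjusted p = 0.386)).

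The response of TH females was next tested against that of TH males, which asks whether the log2 fold change of a gene differed between the sexes. Of 15755 genes tested, 384 (2.44%) differed in diet response, 146 above 0 (0.927%, a more positive response in females) and the others (1.51%) below. Of the 36 fatty acid oxidation and PPAR-alpha genes, 13 lay below 0 and none above. In males 12 of the 36 were higher on high-fat and 1 was lower. The share of all genes called in males alone was not counted, so male counts here and below have none beside them. Cd36 differed by -4.14 ± 0.52 (adjusted p = 0.000118, with responses of -1.96 in TH females and 2.18 in TH males), Cyp4a14 by -3.72 ± 0.71 (adjusted p = 0.00457, with responses of -2.56 in TH females and 1.16 in TH males) and Acot1 by -2.10 ± 0.35 (adjusted p = 0.00172, with responses of -2.41 in TH females and -0.32 in TH males). Among 20 lipid droplet genes, 6 lay below 0. Males had 17 of 19 macrophage genes and 26 of 32 matrix genes higher on high-fat. The test of the difference called 1 and 2 of them, Col1a2 among them at -1.83 ± 0.46 (adjusted p = 0.0305, with responses of 0.35 in TH females and 2.18 in TH males). The Col1a2 call was lost under the replicate block, the block with the GC slope and the fit without both mixed libraries (-1.77 to -1.71, adjusted p 0.0724 to 0.0751). In the TH females alone Col1a2 was called only without high-fat mouse 2 (0.50, adjusted p = 0.0251).

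Of the largest differences above 0, Hsd3b5 differed by 4.49 ± 0.65 (adjusted p = 0.00039, with responses of 3.85 in TH females and -0.64 in TH males) and its neighbour Hsd3b4 by 4.29 ± 0.62 (adjusted p = 0.00036, with responses of 3.50 in TH females and -0.78 in TH males). The axonemal dynein gene Dnaic1 differed by 4.01 ± 0.79 (adjusted p = 0.00544, with responses of 1.79 in TH females and -2.21 in TH males) and the transcription factor Tcf24 by 3.53 ± 0.55 (adjusted p = 0.000793, with responses of 0.07 in TH females and -3.46 in TH males). Below 0, Sult2a7 differed by -4.61 ± 0.63 (adjusted p = 0.000264, with responses of -5.05 in TH females and -0.44 in TH males), and the male-biased Cyp4a12a and Cyp4a12b, near-identical copies, by -4.31 ± 0.83 (adjusted p = 0.00487, with responses of -4.69 in TH females and -0.39 in TH males) and -4.04 ± 0.88 (adjusted p = 0.012, with responses of -4.44 in TH females and -0.41 in TH males). In female chow mice Cyp4a12a ranged from 0.0712 to 19.3 CPM, and the 2 female groups overlapped. Neither Cyp4a12a nor Cyp4a12b passed the filter on low counts in TH females alone. The response of Fabp5 was more positive in females, with a difference of 3.05 ± 0.71 (adjusted p = 0.0209, with responses of 2.93 in TH females and -0.13 in TH males), while Apoa4 rose in both sexes and by less in females, with a difference of -2.60 ± 0.43 (adjusted p = 0.00131, with responses of 2.15 in TH females and 4.75 in TH males). No gene of the cholesterol list was called in the test of the difference, with 15 of 26 genes lower in males. Only 2.44% of all genes were called in that test, so none among 26 does not show like responses. The Fabp5 call was lost under the replicate block and the block with the GC slope (2.34 to 2.36, adjusted p 0.0995 to 0.109).

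**Figure D5:**
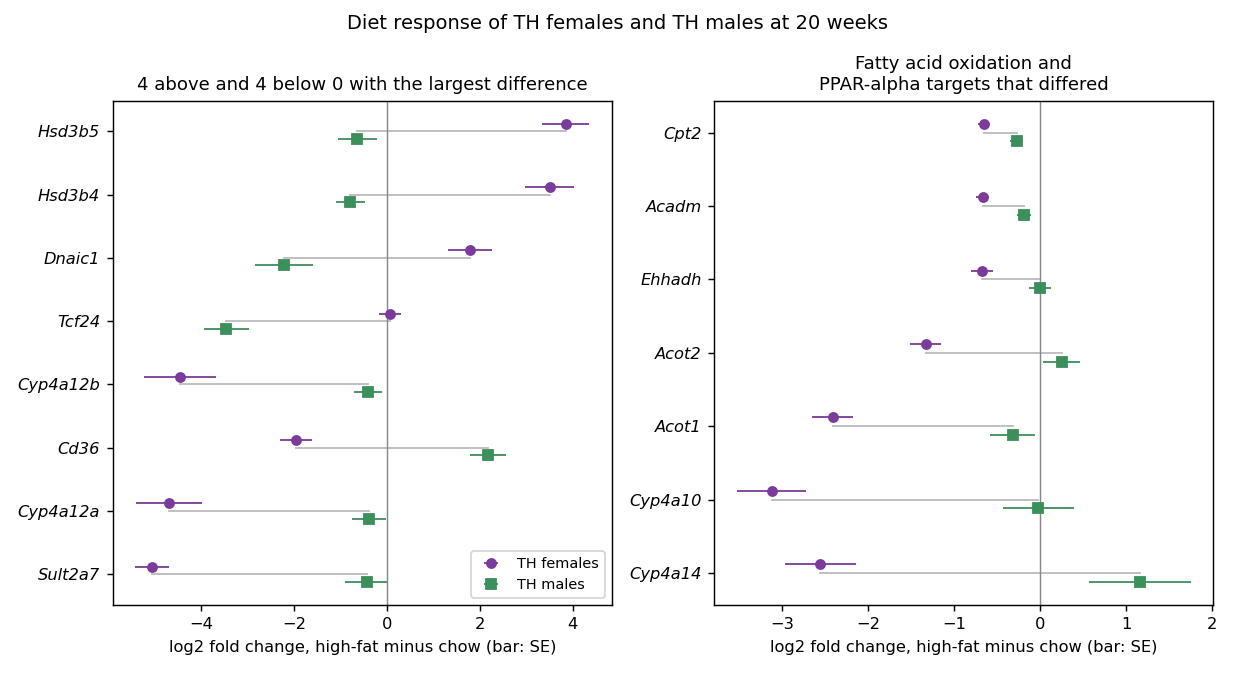
Log2 fold change, high-fat over chow, with its standard error as a bar, in TH females (circles) and TH males (squares), for the 8 genes of largest difference (left) and 7 of the 13 fatty acid oxidation and PPAR-alpha genes that differed, those named in the text (right). Hsd3b5 lies at 3.85 in females and -0.64 in males, Cd36 at -1.96 and 2.18, and all 7 oxidation genes drawn lie further left in females.

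Against B6 females, 106 of 16568 genes (0.64%) differed in response, 55 above 0 (0.332%) and 51 below (0.308%). Adcy1 differed by 3.37 ± 0.78 (adjusted p = 0.0408, with responses of 4.78 in TH females and 1.40 in B6 females), Rad51b, a recombination gene, by 2.98 ± 0.55 (adjusted p = 0.0118, with responses of 2.31 in TH females and -0.66 in B6 females), Pdk4 by 2.94 ± 0.63 (adjusted p = 0.0259, with responses of 1.18 in TH females and -1.76 in B6 females) and the imprinted non-coding RNA Rian by 2.90 ± 0.57 (adjusted p = 0.0186, with responses of 0.10 in TH females and -2.80 in B6 females). Below 0 were Ly6a (-3.47 ± 0.46, adjusted p = 0.000639, with responses of -2.31 in TH females and 1.16 in B6 females), a surface antigen also known as Sca-1, the potassium channel Kcnk10 (-2.27 ± 0.40, adjusted p = 0.011, with responses of 0.56 in TH females and 2.82 in B6 females), Col5a2 (-2.12 ± 0.40, adjusted p = 0.0152, with responses of -1.81 in TH females and 0.30 in B6 females) and Eml6 (-1.91 ± 0.44, adjusted p = 0.0382, with responses of -1.04 in TH females and 0.87 in B6 females). The response was more positive in TH for Lepr, with a difference of 1.75 ± 0.38 (adjusted p = 0.0259), and for Vnn1, with one of 2.06 ± 0.37 (adjusted p = 0.0118). No cholesterol, amino acid, drug metabolism or oxidative phosphorylation gene was called in the test of the difference. Only 0.64% of all genes were called, so none in lists of 26 to 32 genes does not show like responses. B6 females had 10 cholesterol, 18 amino acid and 16 drug metabolism genes lower on high-fat. The share of all genes called in B6 females alone was not counted. The Adcy1 call was lost under the GC slope and the block with the GC slope (3.41 to 3.69, adjusted p 0.0546 to 0.0561). The Rad51b call was lost under the replicate block and the block with the GC slope (2.60 to 2.97, adjusted p 0.0743 to 0.223). The Pdk4 call was lost under the replicate block, the block with the GC slope and the fit without both mixed libraries (2.39 to 2.99, adjusted p 0.0793 to 0.253). The Rian call was lost under the block with the GC slope (2.40, adjusted p = 0.168). Rian stood at 0.214 to 1.00 CPM in the TH females and did not pass the filter on low counts in them alone. A fall in them could hardly be seen at that level. The Eml6 call was lost under the GC slope, the block with the GC slope and the fit without both mixed libraries (-1.99 to -1.83, adjusted p 0.0721 to 0.116). In the TH females alone Eml6 was called, but not in 12 of the 20 alternatives (-1.08 to -0.87, adjusted p 0.0515 to 0.0977). Kcnk10 was called in the TH females alone only without chow mouse 1 (0.83, adjusted p = 0.0108). The Lepr call was lost under the block with the GC slope (1.71, adjusted p = 0.079). The Vnn1 call was lost under the block with the GC slope (1.72, adjusted p = 0.0642).

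Against TH females at 5 weeks, 170 of 16058 genes (1.06%) differed, 81 above 0 (0.504%) and 89 below (0.554%). The 5-week mice were other, younger animals, so age and time on diet cannot be told apart. Above 0 were Adcy1 (4.55 ± 0.67, adjusted p = 0.003, with responses of 4.76 at 20 weeks and 0.22 at 5 weeks), Hsd3b5 (3.45 ± 0.66, adjusted p = 0.0118, with responses of 3.85 at 20 weeks and 0.40 at 5 weeks), Hsd3b4 (3.04 ± 0.65, adjusted p = 0.0219, with responses of 3.52 at 20 weeks and 0.47 at 5 weeks) and Pfkfb3 (2.48 ± 0.43, adjusted p = 0.00597, with responses of 1.2 at 20 weeks and -1.28 at 5 weeks). Below 0 were the immediate early gene Egr1 (-4.20 ± 1.04, adjusted p = 0.0493, with responses of -1.12 at 20 weeks and 3.08 at 5 weeks), Cyp4a14 (-3.08 ± 0.75, adjusted p = 0.0449, with responses of -2.56 at 20 weeks and 0.53 at 5 weeks), Serpinb1a (-2.30 ± 0.45, adjusted p = 0.012, with responses of -3.89 at 20 weeks and -1.59 at 5 weeks) and Cyp4a32 (-1.71 ± 0.33, adjusted p = 0.0118, with responses of -1.97 at 20 weeks and -0.26 at 5 weeks). Lepr differed by 2.2 ± 0.39 (adjusted p = 0.00597) and G6pdx by 1.91 ± 0.39 (adjusted p = 0.0174). Of the fatty acid oxidation genes 5 lay below 0, with 6 higher at 5 weeks. No cholesterol, clock or amino acid gene was called in the test of the difference. Only 1.06% of all genes were called, so none in lists of 20 to 32 genes does not show like responses. At 5 weeks 12 cholesterol genes, 16 amino acid genes and 7 clock genes were lower on high-fat. The share of all genes called at 5 weeks alone was not counted. The Egr1 call was lost under no low-count filter, the replicate block, the GC slope, the block with the GC slope and the fit without both mixed libraries (-4.39 to -2.68, adjusted p 0.0506 to 0.176). The Cyp4a14 call was lost under the replicate block, the block with the GC slope and the fit without both mixed libraries (-3.18 to -2.96, adjusted p 0.0633 to 0.106). The Serpinb1a call was lost under the block with the GC slope (-2.34, adjusted p = 0.0537). The G6pdx call was lost under the block with the GC slope (1.79, adjusted p = 0.0531).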

How the data were processed

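Poly(A) RNA of whole liver was sequenced. Per the labels' protocols, RNA had integrity numbers above 8 and stranded libraries were made from 1000 ng. Build GRCm39, Trimmomatic 0.39, HISAT2 2.2.1, SAMtools, DESeq and DESeq2 are listed, with no roles, per the submitters' processing notes; how reads were assigned to genes, on which strand and by which annotation is not given in the sources used here. The deposited counts, whole numbers of reads per Ensembl gene made by the authors and not normalized, were the source of every value; the authors' deposited normalized signal and FPKM tables were not used. Without a known strand setting or treatment of shared reads, overlapping, antisense and near-identical genes are uncertain. A symbol was found for 52073 of the 56980 identifiers.

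Groups followed the labels. The 12 libraries, of 10482033 to 15870716 counts, were fitted alone with edgeR 4.0.16 (limma 3.58.1, R 4.3.3). Low genes were removed with filterByExpr at a minimum count of 10 and a total of 15, and TMM factors, the quasi-likelihood F test and Benjamini-Hochberg adjustment over all genes tested were used, with a threshold of 0.05. The standard error of a log2 fold change was its size over the square root of its F, and CPM uses TMM-scaled totals. Differences in response were interaction tests over 24 libraries each. Genes named by size were the 12 called genes of largest rise and of largest fall (4 for each interaction) with a mean log2 CPM of at least 1, for the diet response also with groups that do not overlap, leaving out predicted, clone and pseudogene names. Members of 44 gene lists were named within their list; values of a few single members are not reported here, though their lists' counts include them. The members and lists were chosen with earlier results of these data known. Alternatives were RLE factors, no low-count filter, DESeq2 1.42.0, all 16 liver groups in 1 fit, the replicate number as a block, each library's slope on GC content, leaving out each mouse, and, added after the data were seen, leaving out chow mouse 6 and high-fat mouse 5. The fit was tested on simulated data. Promoters came from RefSeq (GRCm38.p6). Python 3.11.15 (matplotlib 3.10.9, numpy 2.4.6, pandas 2.3.3) made the tables and plots.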

Additional observations from a re-analysis of the deposited data

Results flagged for a closer look

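In 28 of the 348 sets of 6 mice checked (1 gene in 1 diet group each), the highest or lowest mouse stood apart from the other 5 by more than Dixon's critical value. Chance gives about 1 in 20 sets, and genes of 1 mouse are not independent. High-fat mouse 5 stood apart in Abcc3 (274 CPM). Chow mouse 1 stood apart in Acaca (107 CPM), Apoa4 (289 CPM), Ddx3y (0.0712 CPM) and Scd1 (239.7 CPM). High-fat mouse 1 stood apart in Arntl (27.6 CPM), Cry1 (11.8 CPM), Dbp (11.2 CPM), Nfil3 (31.2 CPM), Npas2 (7.68 CPM), Per3 (24.1 CPM) and Tef (92.7 CPM). High-fat mouse 6 stood apart in Cd9 (27.9 CPM). High-fat mouse 2 stood apart in Ciart (1.11 CPM) and Kdm5d (0.318 CPM). Chow mouse 4 stood apart in Cyp4a14 (139.5 CPM), Jun (11.0 CPM), Mup1 (723 CPM) and Pdk4 (6.91 CPM). Chow mouse 2 stood apart in Fasn (1780 CPM), Lipe (23.9 CPM) and Pnpla3 (4.27 CPM). Chow mouse 6 stood apart in Gpt (330 CPM). High-fat mouse 3 stood apart in Gstt3 (67.1 CPM). Chow mouse 3 stood apart in Hmgcs1 (489.9 CPM) and Kdm5d (0.339 CPM). High-fat mouse 4 stood apart in Hspa1a (25.2 CPM) and Hspa1b (43.9 CPM). Ddx3y and Kdm5d were at or below 0.339 CPM in every mouse, so their flags rest on very few reads. What sets these mice apart was not tested.

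Of the genes named here, 36 differed in diet response between TH females and TH males, given as the log2 difference, females minus males. Above 0 were Hsd3b5 (4.49), Hsd3b4 (4.29), Dnaic1 (4.01), Tcf24 (3.53), Fabp5 (3.05), Rian (2.37), Serpina12 (1.68), G6pdx (1.68), Irs2 (1.51), Arntl (1.11), Ugt1a1 (1.08), Ces2a (1.03) and Slc30a1 (0.61). Below 0 were Sult2a7 (-4.61), Cyp4a12a (-4.31), Cd36 (-4.14), Cyp4a12b (-4.04), Cyp4a14 (-3.72), Cyp4a10 (-3.10), Serpinb1a (-2.74), Apoa4 (-2.60), Ces2c (-2.57), Eml6 (-2.42), Acot1 (-2.10), Rtn4 (-2.09), Abcc4 (-2.08), Col1a2 (-1.83), Acot2 (-1.58), Cyp4a32 (-1.48), Snhg11 (-1.43), Ephx1 (-1.28), Aldh1a7 (-1.14), Gpt2 (-0.76), Ehhadh (-0.67), Acadm (-0.48) and Cpt2 (-0.38). Rian, Cyp4a12a and Cyp4a12b did not pass the filter on low counts in TH females alone. The Rian call was lost under the replicate block, the block with the GC slope and the fit without both mixed libraries (2.31 to 2.5, adjusted p 0.0533 to 0.0935). The Serpina12 call was lost under the 16-group fit (1.68, adjusted p = 0.0781). The Irs2 call was lost under the fit without both mixed libraries (1.5, adjusted p = 0.0713). The Arntl call was lost under the 16-group fit (1.11, adjusted p = 0.286). The Ces2a call was lost under the replicate block and the fit without both mixed libraries (0.98 to 1.06, adjusted p 0.0786 to 0.0838). The Slc30a1 call was lost under the replicate block, the block with the GC slope and the fit without both mixed libraries (0.59 to 0.63, adjusted p 0.0713 to 0.0869). The Cpt2 call was lost under RLE factors, no low-count filter, the replicate block and the fit without both mixed libraries (-0.39 to -0.36, adjusted p 0.0544 to 0.126). The Ehhadh call was lost under the 16-group fit and the fit without both mixed libraries (-0.69 to -0.67, adjusted p 0.0714 to 0.0872). The Gpt2 call was lost under the fit without both mixed libraries (-0.75, adjusted p = 0.056). The Snhg11 call was lost under the replicate block and the block with the GC slope (-1.43 to -1.41, adjusted p 0.0635 to 0.0649). The Abcc4 call was lost under the replicate block and the block with the GC slope (-2.08 to -2.06, adjusted p 0.0567 to 0.0614).

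Against B6 females, 15 of them differed, as TH minus B6 on the log2 scale. Above 0 were Adcy1 (3.37), Rad51b (2.98), Pdk4 (2.94), Rian (2.90), Fam198a (2.89), Ppard (2.72), Adgrv1 (2.39), Gria3 (2.35), Vnn1 (2.06), Lepr (1.75) and Axin2 (1.12). Below 0 were Ly6a (-3.47), Kcnk10 (-2.27), Col5a2 (-2.12) and Eml6 (-1.91). The Fam198a call was lost under the block with the GC slope (3.05, adjusted p = 0.066). The Axin2 call was lost under the replicate block, the block with the GC slope and the fit without both mixed libraries (0.88 to 1.12, adjusted p 0.0869 to 0.275).

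Against TH females at 5 weeks, 19 differed, as 20 weeks minus 5 weeks on the log2 scale. Above 0 were Adcy1 (4.55), Slc2a4 (4.16), Hsd3b5 (3.45), Hsd3b4 (3.04), Pfkfb3 (2.48), Hspa1a (2.35), Hspa1b (2.35), Lepr (2.2), Gria3 (2.06), G6pdx (1.91) and Ces2a (0.81). Below 0 were Egr1 (-4.20), Cyp4a14 (-3.08), Serpinb1a (-2.30), Cyp4a32 (-1.71), Col5a2 (-1.25), Nat8f4 (-0.58), Nat8f2 (-0.55) and Cpt2 (-0.49). The Slc2a4 call was lost under the replicate block, the GC slope and the block with the GC slope (3.76 to 4.04, adjusted p 0.0559 to 0.085). The Hspa1a call was lost under no low-count filter, the replicate block, the block with the GC slope and the fit without both mixed libraries (1.99 to 2.40, adjusted p 0.0503 to 0.0709). The Hspa1b call was lost under the replicate block, the block with the GC slope and the fit without both mixed libraries (1.96 to 2.37, adjusted p 0.06 to 0.0717). The Ces2a call was lost under the block with the GC slope (0.79, adjusted p = 0.0648). The Cpt2 call was lost under no low-count filter and the block with the GC slope (-0.50 to -0.48, adjusted p 0.0523 to 0.0648). The Nat8f2 call was lost under the 16-group fit (-0.56, adjusted p = 0.17). The Nat8f4 call was lost under the 16-group fit (-0.59, adjusted p = 0.142).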

How the results depend on the processing

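The diet response called 2358 genes, and each alternative gave a count within 1.5 times of it: 2368 with RLE factors, 2660 with DESeq2, 2192 with the GC slope, 2079 with the replicate block, 1744 with the block and the GC slope, 1845 to 2400 leaving out each mouse, 1749 without chow mouse 6 and high-fat mouse 5, and counts between these with no low-count filter and with all 16 liver groups in 1 fit. In every one of these 1214 genes were called. Replicate numbers did not pair the mice: deviations of same-numbered mice correlated at -0.184 to 0.257, so the replicate block is only a check. The interaction counts depended more on the setting, and the cause was not tested. Against TH males (384) DESeq2 called 679, all 16 groups 722, the replicate block 278 and the fit without both mice 236. Against B6 females (106) these called 361, 436, 71 and 42, and the block with the GC slope 24. Against 5 weeks (170) DESeq2 called 438, no low-count filter 94, the replicate block 123 and the block with the GC slope 79. Leaving out single mice was not run for the interactions. No named gene changed sign in an alternative where it was called in that fit or in the main fit. Sign changes of genes called in neither were not counted. Small log2 differences, and genes below about 1 CPM, are the least secure at this depth. Sequenced reads are not independent molecules.

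Some counts of called list members also moved by over 1.5 times. Iron genes higher went from 2 to 1, or to 0 in the fit of all 16 liver groups, under every alternative but RLE factors, DESeq2 and leaving out high-fat mouse 2 or 4. Bile acid genes lower went from 6 to 3 with the block and the GC slope, and those higher from 1 to 2 with DESeq2 and both fits with the replicate block. Male-biased genes lower went from 4 to 2 in the fit of all 16 liver groups. Female-biased genes lower went from 1 to 3 without chow mouse 1, and to 2 with DESeq2 and without chow mouse 6 or high-fat mouse 1. Counts of 1 also became 2 or 3 for Kupffer cell genes higher (DESeq2, the replicate block, without chow mouse 1, high-fat mouse 2 or high-fat mouse 4), glutathione genes higher (DESeq2, the replicate block, without chow mouse 2, high-fat mouse 4 or high-fat mouse 5) and insulin signalling genes lower (without high-fat mouse 1). They became 2 for lipid droplet genes higher (without chow mouse 1 or high-fat mouse 1), macrophage genes higher (without chow mouse 1) and chaperones higher (without high-fat mouse 1). Acute phase genes lower went from 2 to 4 with DESeq2, and hepatokines lower from 0 to 3 with the replicate block and to 2 with the GC slope added to it.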

Other observations

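Gene families of TH female liver were also counted whole. They were chosen after their values were seen, and some of their members are in the lists above. Of 21 major urinary protein (Mup) genes tested, 17 fell and 2 rose (Mup3 and Mup21). Their summed level was 15966 to 39090 CPM on chow and 9048 to 20544 CPM on high-fat, and the groups overlapped: chow mouse 4, at 15966 CPM, was below high-fat mice 1 and 2. All 8 Sult2a sulfotransferase genes tested and all 4 Cyp4a genes tested fell. Of 10 Ces1 and Ces2 carboxylesterase genes, 5 fell, and of 12 Cyp2c genes 5 fell. In the Nat8 family of N-acetyltransferases 3 genes rose and 3 fell: Nat8f3, Nat8f6 and Nat8f7 by 2.25, 2.22 and 2.27, and Nat8, Nat8f2 and Nat8f4 by -0.54, -0.46 and -0.48. The Nat8 call was lost in the 16-group fit and without both mixed libraries. Nat8 then had log2 fold changes of -0.54 to -0.50 and adjusted p of 0.0574 to 0.0596. The members of these families are close copies, so reads may have been shared between them. Of 93 ribosomal protein genes (Rpl and Rps), 1 was called.

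Single genes of large change outside the lists were Ppard, a nuclear receptor for fatty acids, which stood at 10.7 to 13.2 CPM on chow and 19.3 to 106 CPM on high-fat (2.52 ± 0.28, adjusted p = 4.21e-05), and Slc2a4, the insulin-responsive glucose transporter of muscle and fat, at 0.214 to 1.05 CPM on chow and 0.929 to 12.4 CPM on high-fat (3.32 ± 0.62, adjusted p = 0.00214). Rtn4, a protein of the tubular endoplasmic reticulum, was not called in females (0.03 ± 0.08, adjusted p = 0.813) and rose in males, a difference in response of -2.09 ± 0.18 (adjusted p = 1.27e-07, with responses of 0.03 in TH females and 2.12 in TH males). These genes were chosen after their values were seen.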
